A study of Mus musculus with 18 samples.

Results

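Cytosolic ribosomal proteins are the protein parts of the ribosomes that translate messenger RNA in the cytoplasm. Members were chosen by symbol alone: genes named Rpl or Rps with a number and at most a short suffix, the stalk genes Rplp0, Rplp1 and Rplp2, and Rpsa, without the S6 kinase genes. The rule found 83 genes among the 22598 genes counted in each library, 32 of the small (40S) and 51 of the large (60S) subunit. They were followed in primary mouse bone-marrow-derived macrophages (BMDMs), which are grown from marrow cells in culture and are labelled WT in these samples. The 6 groups of 3 libraries, all at 18 h, were untreated cells (control), cells given interferon-gamma (IFNg) alone, and cells given IFNg with 1 addition. The additions were TNF (tumour necrosis factor), IL1b (the cytokine interleukin-1 beta), LPS (lipopolysaccharide of bacterial cell walls) and hypoxia. No agent was given without IFNg, and the sources used here state no strain, age, dose or oxygen level. Below, a TNF, IL1b, LPS or hypoxia library always held IFNg too.

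A ribosome has a small subunit, which reads the message and checks the codon, and a large subunit, which joins the amino acids. One copy of nearly every ribosomal protein is built into each particle, and cells make them in step with ribosomal RNA. Many of their mRNAs start with a terminal oligopyrimidine (TOP) tract, a run of C and T letters at the first transcribed base through which mTORC1 signalling controls their translation. In macrophages, activation by interferon and microbial products is known to reshape translation, and ribosomal protein genes are often used as reference genes there. Mammalian genomes also hold many processed pseudogenes of these genes, which are intronless copies made from mature mRNA.

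The libraries held 12270565 to 20952799 counts in genes. All 12 macrophage markers fixed for the check were measured and passed the filter on low counts, with summed levels of 15198 to 28346 CPM. CPM is the usual per-library scaling of counts, taken here relative to the tested genes' total in a library after TMM scaling. The T cell genes Cd3d, Cd3e and Cd3g and the B cell genes Ms4a1 and Pax5 were at 0 counts in all libraries, and the 7 erythroid markers summed to at most 0.406 CPM. Other markers of these cell types were counted. In the control libraries the 6 B cell markers summed to 574 to 750 CPM and the 7 T cell markers to 125 to 141. The 11 neutrophil markers summed to 110 to 165 CPM there. Among 11563 genes tested, the quasi-likelihood test of edgeR was used for every adjusted p given here (Benjamini-Hochberg over all genes tested, threshold 0.05). A gene that passed is said to have been called, and standard errors (SE) are given beside log2 fold changes. Whether the 3 libraries of a group are separate animals, cultures or preparations is not stated in the labels, and p-values therefore cover only the spread between these libraries, which may be technical.

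Many of the 83 genes were hardly counted. Of them 44 passed the filter on low counts, 20 of the small and 24 of the large subunit, and of these 21 had a mean of 10 CPM or more over the 18 libraries. The remaining 39 genes never exceeded 35 counts in a library, and 7 of them (Rpl10l, Rpl13a, Rpl23a, Rpl36, Rps23, Rps28 and Rps29) were at 0 in all 18. A count of 0 allows up to 3 counts, which corresponds to 0.151 to 0.255 CPM in these libraries and covers counting error only. Members of such basic function as Rps6, the subunit protein phosphorylated by S6 kinases, reached at most 35 counts, and Rpl10 at most 15.

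The counted level ran against how often a gene's coding sequence recurs elsewhere in the genome. Each coding sequence was divided into all its windows of 50 bases, the read length, and a window was marked where a transcript of another gene at another locus in GENCODE M21 held the same 50 bases. The median share of marked windows was 87.8% over the 83 members, against 0% over 78 mitochondrial ribosomal protein genes and 0% over 76 ribosome biogenesis factors. In 25 members all windows were marked, and 1 of these 25, Rpl17, passed the filter. Of the mitochondrial ribosomal protein genes 97.44% passed the filter, and of the biogenesis factors 98.68%. Across the 83 genes the rank correlation between the marked share and the level per kilobase of deposited length was -0.68 (Spearman). This is a description over genes of the same libraries, and genes are not independent replicates. How the authors' pipeline treated reads with several equally good positions is not stated in the labels or notes.

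Short stretches show what a 50-base read can and cannot tell apart. The lines below give coding bases 51 to 100 of 3 members and the aligned bases of the closest copy in the genome, from GENCODE M21 transcripts, with capitals where the 2 lines of a pair differ. Rps29 (chr12:69157722-69159186, minus strand), at 0 counts in every library, was identical to the processed pseudogene Gm14303 (chr2:172509521-172509691) over all 171 coding bases. Rps15 (chr10:80292453-80294114, plus strand) and Rps15-ps2 (chr6:58017506-58017943) differed at 10 of 438 aligned bases. Rpl32 (chr6:115805505-115808747, minus strand) and Gm7434 (chr8:4391726-4392133) differed at 19 of 408.
Rps29: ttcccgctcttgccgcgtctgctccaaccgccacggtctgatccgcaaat
Gm14303: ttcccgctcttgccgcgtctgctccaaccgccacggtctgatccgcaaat
Rps15: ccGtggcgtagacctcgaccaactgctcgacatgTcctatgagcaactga
Rps15-ps2: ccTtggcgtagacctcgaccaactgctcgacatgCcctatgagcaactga
Rpl32: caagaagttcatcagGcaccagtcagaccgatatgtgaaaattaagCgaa
Gm7434: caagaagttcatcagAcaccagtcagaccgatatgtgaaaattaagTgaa
Rps15 and Rpl32, whose stretches each differ from the copy by 2 bases, were counted in every library, with at least 642 and 191 counts. The 3 pairs are chosen examples and show only the closest copy. Within 2 mismatches, windows of Rps29, Rps15 and Rpl32 recurred in 12, 10 and 14 pseudogenes, so these stretches are not shown to be unique.

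The order of levels followed the same line, with exceptions. Per kilobase of deposited length, the highest members included Rps3 at 832 CPM, Rpl8 at 732 and Rps9 at 409. Rps3 (chr7:99477896-99483738, minus strand), at the entry of the mRNA channel, had 8.1% of its windows repeated elsewhere, and Rpl8 (chr15:76904078-76906314, plus strand), near the peptidyl transferase centre, had 8.7%. The 5 lowest tested members were Rpl17 at 0.26, Rpsa at 0.41, Rps2 at 0.86, Rpl3 at 0.96 and Rps18 at 1.10, with 78.0 to 100% of their windows repeated. Rps15a and Rps26 stood high for their sequence, at 241 and 363 CPM per kilobase with 84.3 and 73.2% of windows repeated. Rpl13a stood low, at 0 counts with 39.1% of windows repeated exactly and 93.1% within 2 mismatches. Rpl41, which encodes a very small basic peptide, had 4 counts in all with 4.3% repeated exactly and 43.5% within 2 mismatches. How far these levels rank the mRNAs of different members was not tested.

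**Figure D1:**
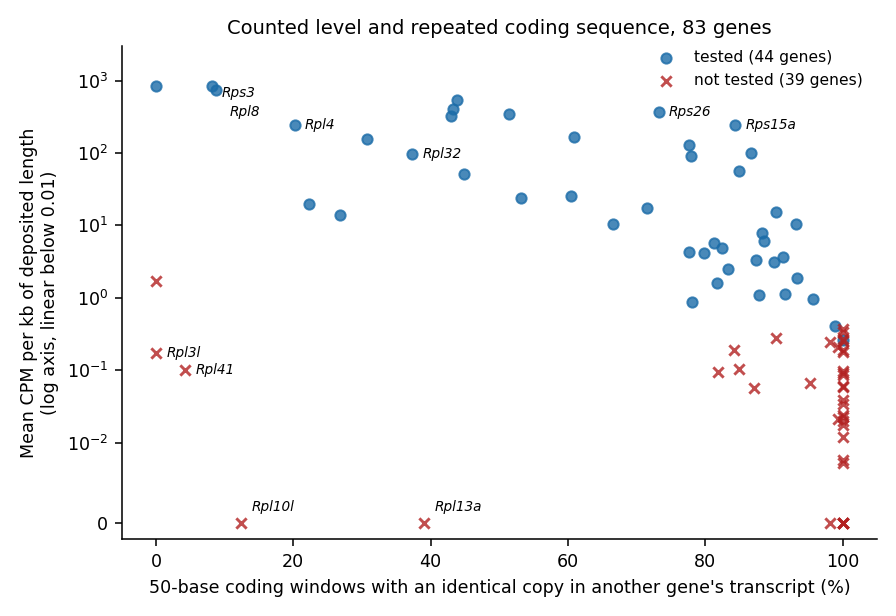
Mean level of each of the 83 genes (y axis, CPM per kilobase of deposited length, log scale that is linear below 0.01) against the share of its 50-base coding windows with an identical copy in another gene's transcript (x axis, percent). Circles are the 44 genes that passed the filter on low counts and crosses the 39 that did not. All but 1 of the 25 genes at 100% did not pass, while Rps3 and Rpl8 lie at the upper left.

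As a group, the members took the largest share of counts in untreated cells and the smallest after TNF. Their summed share was 0.564, 0.562 and 0.623% of the gene counts in the 3 control libraries, and 0.401, 0.390 and 0.393% in the IFNg libraries. It was 0.233, 0.172 and 0.225% with TNF and 0.299, 0.276 and 0.220% with LPS. With IL1b it was 0.406, 0.362 and 0.345%, and with hypoxia 0.394, 0.391 and 0.344%. The control libraries lay above all others, the TNF and LPS libraries lay below all IFNg, IL1b and hypoxia libraries, and TNF and LPS overlapped each other. Within each library 5 members held 61.1 to 69.7% of these counts, so the sum mainly follows the best counted genes.

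The means were 0.583% ± 0.035 (SD, n = 3) in control, 0.395% ± 0.005 with IFNg, 0.210% ± 0.033 with TNF, 0.371% ± 0.032 with IL1b, 0.265% ± 0.040 with LPS and 0.376% ± 0.028 with hypoxia. The ratio to the group named second was 0.677 for IFNg against control, 0.532 for TNF against IFNg and 0.671 for LPS against IFNg. A two-sided exact permutation test gave p = 0.1 for each of these 3, and also for TNF against hypoxia (ratio 0.558) and LPS against hypoxia (ratio 0.704). With 3 libraries a group 0.1 is the smallest p the design allows, and adjusted over the 8 comparisons these were 0.16. The shares overlapped for IL1b against IFNg (ratio 0.940, exact p = 0.4), hypoxia against IFNg (ratio 0.953, exact p = 0.5) and TNF against LPS (ratio 0.793, exact p = 0.3). With the totals implied by the RPKM values as denominator, the hypoxia libraries (0.178 to 0.205%) lay below all IFNg libraries (0.208 to 0.212%), with a ratio of 0.933 and an exact p of 0.1. In such bulk samples fewer cells of a type and less RNA per cell cannot be told apart. The summed level of 32 cell cycle genes also differed between groups, from 3558 to 4298 CPM in control and 2318 to 2706 with IFNg down to 348 to 436 with TNF, 674 to 780 with LPS and 529 to 667 with hypoxia. Its part in the share of the members was not tested.

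**Figure D2:**
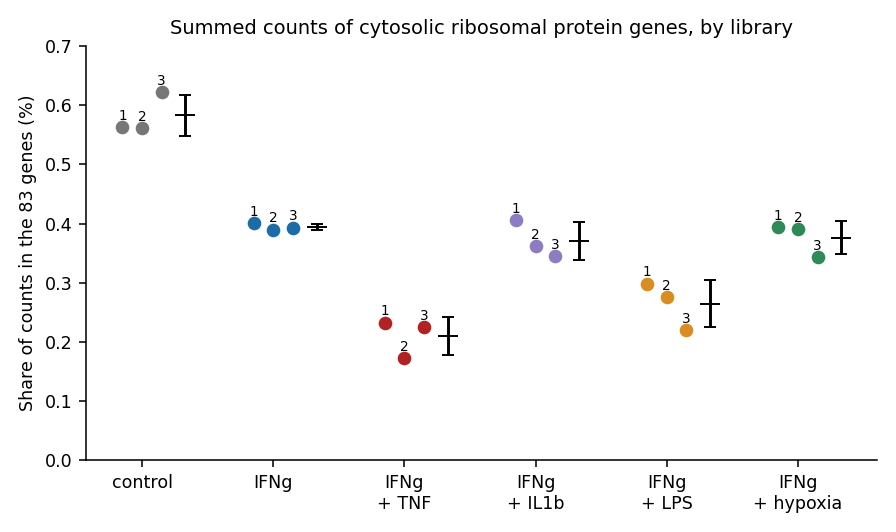
Share of all gene counts that fell in the 83 genes (y axis, percent), by group (x axis). Points are libraries with their replicate number, and the bar beside them is the mean ± SD of 3 libraries. Control libraries lie at 0.562 to 0.623%, and TNF libraries at 0.172 to 0.233%.

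IFNg alone was compared with untreated cells to see which members respond to the cytokine that all other groups also received. Rps9, Rpl4 and Rpl8 fell and no member rose. Rps9 (chr7:3703993-3706897, plus strand), which helps proofread the codon on the small subunit, was at 353, 391 and 375 CPM in control and 197, 285 and 245 with IFNg. The groups did not overlap, with a log2 fold change of -0.62 (SE 0.16, edgeR adjusted p = 0.0053). Rpl4 (chr9:64173375-64178666, plus strand), whose long loop lines the exit tunnel for the new protein, was at 488, 386 and 414 CPM in control and 322, 339 and 349 with IFNg. All IFNg libraries lay below all control libraries, with a log2 fold change of -0.35 (SE 0.11, edgeR adjusted p = 0.018). Rpl8 went from 816, 770 and 1000 CPM to 620, 579 and 659, again without overlap, with a log2 fold change of -0.48 (SE 0.15, edgeR adjusted p = 0.018).

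The 3 calls among 44 tested members stand against 10% of all tested genes called lower and 13.5% called higher. The 44 together were thus not called more often than other genes. All 3 were among the 21 members of 10 CPM or more (14.3%), against 12.5% of all tested genes of that level called lower. The members' estimates leaned lower all the same: 33 of 44 lay below 0 with a median of -0.45, against 51.1% of all tested genes with a median of -0.01. The groups did not overlap, with control above, for 11 members, against 18.9% of all tested genes. The members' estimates were also less precise, with a median SE of 0.45 against 0.25 over all tested genes. Rps3 (-0.27), Rpl22 (-0.44), Rplp0 (-0.67) and Rpl23 (-0.71) missed the threshold with adjusted p of 0.080, 0.080, 0.080 and 0.059 by edgeR. The count of lower calls moved with the processing, to 7 with library totals in place of TMM, 11 with the totals implied by the RPKM values, and 10 when only control and IFNg were fitted. Over all tested genes lower calls went from 1161 to 1791 and 1796 with these totals, and were 1345 of 10797 in the 2-group fit. Without the first IFNg library 1 member was called, with 2346 of 11847 genes tested there. Only the call of Rps9 held in every alternative run. The summed level of the 12 macrophage markers also differed, at 22423 to 28346 CPM in control and 15218 to 17036 with IFNg. Of these 12, 5 were called lower and 3 higher, and estimates lay below 0 for 6 and above for 6 (median -0.05). The 7 T cell markers summed to 125 to 141 CPM in control and 43.1 to 59.8 with IFNg, and the 6 dendritic cell markers to 5.27 to 5.35 and 90.4 to 95.1. Of the 3 T cell markers tested 1 was called lower. Of the 6 dendritic cell markers 2 were called higher, and 2 had estimates below 0. The part of these markers in the members' changes was not tested.

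Adding TNF to IFNg lowered 8 members and raised none. In the small subunit these were Rps3, Rps19 and Rps20. Rps3 was at 685, 699 and 763 CPM with IFNg and 497, 392 and 510 with TNF, a log2 fold change of -0.62 (SE 0.11, edgeR adjusted p = 5.5e-05). Rps19, a protein of 40S maturation whose loss causes Diamond-Blackfan anaemia, was at 16.4, 12.5 and 21.1 CPM and then at 10.9, 7.4 and 6.6 (log2 fold change -1.0, SE 0.32, edgeR adjusted p = 0.013). Rps20 went from 21.6, 25.8 and 27.6 to 19.2, 5.9 and 13.5 CPM. For each of these 3 genes every TNF library lay below every IFNg library, with the second TNF library lowest for Rps3 and Rps20.

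In the large subunit TNF lowered Rpl4, Rpl8, Rpl14, Rpl22 and Rpl32. Rpl4 went to 209, 243 and 197 CPM, from 322, 339 and 349 with IFNg, a log2 fold change of -0.64 (SE 0.11, edgeR adjusted p = 2.2e-05). Rpl8 went to 447, 315 and 383 CPM from 620, 579 and 659 (log2 fold change -0.70, SE 0.15, edgeR adjusted p = 0.00037). Rpl32, one of the proteins on the outer face of the large subunit, had the largest change of the 8. It was at 45.6, 35.1 and 40.6 CPM with IFNg and 23.8, 15 and 15.1 with TNF (log2 fold change -1.17, SE 0.27, edgeR adjusted p = 0.00090). Rpl22 (chr4:152325742-152334071, plus strand), a protein dispensable for translation that binds other RNAs, changed by -0.58 (SE 0.18, edgeR adjusted p = 0.011), and Rpl14 by -0.81 (SE 0.29, edgeR adjusted p = 0.028). No IFNg and TNF library overlapped for these 5 genes.

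These 8 of 44 stand against 22.6% of all tested genes called lower and 22.1% called higher with TNF. The 44 together were thus not called more often than other genes. All 8 were among the 21 members of 10 CPM or more (38.1%), against 26.9% of all tested genes of that level called lower. By direction 39 of 44 estimates lay below 0 with a median of -0.62, against 52.2% of all tested genes with a median of -0.05. TNF libraries lay wholly below IFNg for 14 members, against 27.2% of all tested genes. All 21 members of 10 CPM or more had estimates below 0, from -0.16 to -1.17, with a median SE of 0.27. Rpl4, Rps3, Rpl8 and Rpl32 were called in every alternative run. The count of lower calls went to 17 with library totals or RPKM totals, which move the median of all tested genes to -0.40 and -0.37, and to 4 without the third IFNg library. Relative to those shifts the median of the members, -0.96 and -0.94, stayed lower. Lower calls over all tested genes went from 2614 to 4134 with library totals and 3985 with RPKM totals. Without the third IFNg library they were 2278 of 11918. The B cell marker sum, almost all of it Ighm, went from 505 to 579 CPM in the IFNg libraries to 7.28 to 12.6 with TNF, and the sum of 7 T cell markers went from 43.1 to 59.8 up to 181 to 283 CPM. The sum of 11 neutrophil markers went from 107 to 130 CPM down to 13.0 to 18.1. With LPS these sums were 63.3 to 110, 118 to 212 and 31.8 to 44.4 CPM, and with hypoxia 250 to 283, 87.9 to 107 and 67.6 to 92.2 CPM. Their part in the changes of the members was not tested.

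**Figure D3:**
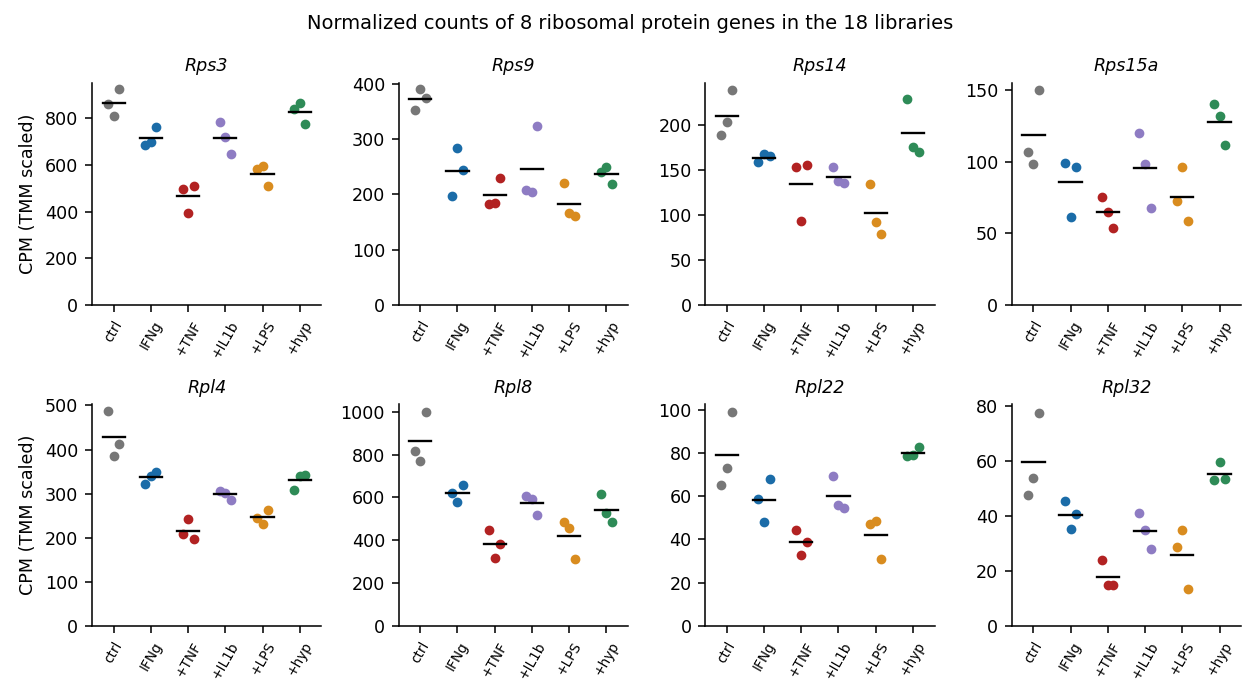
Normalized counts (y axis, CPM scaled by TMM, linear from 0) of 8 members in the 18 libraries, by group (x axis). Points are libraries and lines are means of 3. Rpl32 lies at 15 to 23.8 CPM in the TNF libraries, below all IFNg libraries, and at 53.2 to 59.6 in the hypoxia libraries.

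LPS added to IFNg lowered 4 members, Rpl4, Rpl8, Rps14 and Rps3, and raised none. Rpl4 was at 244, 232 and 262 CPM with LPS, below all 3 IFNg libraries (log2 fold change -0.45, SE 0.11, edgeR adjusted p = 0.0030). Rps14, which sits at the platform of the small subunit and is known from the 5q- syndrome, was at 159, 168 and 166 CPM with IFNg and 134, 92.6 and 78.8 with LPS (log2 fold change -0.69, SE 0.18, edgeR adjusted p = 0.0084). Rpl8 went to 487, 459 and 314 CPM, with a log2 fold change of -0.56 (SE 0.15, edgeR adjusted p = 0.0070). Rps3 went to 583, 596 and 507 CPM, with a log2 fold change of -0.35 (SE 0.11, edgeR adjusted p = 0.027). The libraries did not overlap for any of the 4.

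Of all tested genes 10.1% were called lower and 10.2% higher with LPS, close to the members' 4 of 44. All 4 were among the 21 members of 10 CPM or more (19.0%), against 13.2% of all tested genes of that level called lower. The estimate lay below 0 for 34 of 44 members with a median of -0.54, against 50.3% of all tested genes. LPS libraries lay wholly below IFNg for 13 members, against 17.4% of all tested genes. The third LPS library was low in 17 of the 21 members of 10 CPM or more, and without it only Rpl4 was called, with a median log2 fold change of -0.37. Lower calls numbered 7 with library totals, 9 with RPKM totals and 8 when only the LPS and IFNg libraries were fitted. Over all tested genes lower calls went from 1164 to 1474 and 1441 with these totals, and were 1097 of 10703 in the 2-group fit.

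IL1b added to IFNg moved no member past the threshold by edgeR or by DESeq2, and 0 of 44 had an unadjusted p under 0.05. Of all tested genes 0.303% were called in either direction, 0.0346% lower and 0.268% higher. Estimates lay below 0 for 24 of 44 members, against 50.1% of all tested genes. The median of the 44 was -0.06 with a median SE of 0.45. Rps3 was at 783, 720 and 648 CPM with IL1b, on both sides of the IFNg libraries, with a log2 fold change of 0.00 (SE 0.11). Rpl4 was at 307, 301 and 286 CPM, just below the 3 IFNg libraries, with a log2 fold change of -0.18 (SE 0.11). IL1b libraries lay wholly below IFNg for 4 members (Rpl4, Rplp1 and Rps14 among them), against 6.7% of all tested genes.

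Hypoxia added to IFNg also moved no member past the threshold by edgeR, while 25.2% of all tested genes were called in either direction, 11.8% lower and 13.5% higher. Estimates leaned upward: 27 of 44 lay above and 17 below 0 with a median of 0.22, against 50.8% of all tested genes below 0 and a median of -0.01. Rps15a, of the small subunit, was at 99.0, 61.3 and 96.4 CPM with IFNg and 140, 132 and 111 with hypoxia (log2 fold change 0.58, SE 0.23, edgeR adjusted p = 0.070). Rpl22 was at 58.6, 48.1 and 67.7 CPM and then at 78.6, 78.8 and 82.5 (log2 fold change 0.46, SE 0.18, edgeR adjusted p = 0.065). These were the 2 members with an unadjusted p under 0.05, both higher and both without overlap, and DESeq2 called 1 of the 44. Hypoxia libraries lay wholly above IFNg for 8 members, against 22.3% of all tested genes. The members' median was -0.02 with RPKM totals, which called 2 members lower, and 0.01 with library totals. These totals moved the median of all tested genes to -0.26 and -0.22. Relative to those shifts the median of the members stayed higher. With RPKM totals 2564 of 11563 tested genes were called lower. When only hypoxia and IFNg were fitted 5 members were called higher, with 1875 of 10663 genes tested there.

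The additions were then compared with each other, which does not pass through the shared IFNg libraries. TNF against LPS called 0 of 44 members by edgeR and 0 by DESeq2, with 2 at an unadjusted p under 0.05, while 25.3% of all tested genes were called, 12.2% lower and 13.1% higher. Estimates lay below 0 for 26 members, against 51.2% of all tested genes. The median was -0.10, and the SE of Rps3, Rpl4 and Rpl8 was 0.11 to 0.15. With RPKM totals 4 members were called lower with TNF, with library totals 3, and without the third LPS library 2. Over all tested genes lower calls went from 1407 to 2621 and 2812 with these totals. Without the third LPS library they were 1269 of 11913. Leaving out the first LPS or the second TNF library each gave 1 member called higher. The ratio of the summed shares, 0.793, was within the spread between libraries.

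Against hypoxia both inflammatory additions stood lower. With TNF 15 of 44 members were called lower and 0 higher, against 20.1% of all tested genes called lower and 18.9% called higher. The groups were apart, with TNF below, for 19 members, against 24.8% of all tested genes. Rps3 showed the smallest adjusted p, with 841, 867 and 776 CPM in hypoxia and 497, 392 and 510 with TNF (log2 fold change -0.83, SE 0.11, edgeR adjusted p = 1.1e-06). Rpl32 stood at 53.2, 59.6 and 53.4 CPM against 23.8, 15 and 15.1 (log2 fold change -1.62, SE 0.27, edgeR adjusted p = 3.1e-05). None of these libraries overlapped. Groups were also apart for Rpl4, Rpl8, Rpl22, Rps4x, Rps14, Rps15, Rps15a, Rps19 and Rps20, with log2 fold changes of -0.51 to -1.69, whereas the called Rplp0 overlapped.

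With LPS 11 of 44 members were called lower than in hypoxia and 0 higher, against 15.5% of all tested genes called lower and 14.4% called higher. LPS libraries lay wholly below for 17 members, against 22% of all tested genes. Rpl22 was at 47, 48.7 and 31.1 CPM with LPS (log2 fold change -0.92, SE 0.18, edgeR adjusted p = 0.00031). Rps14 was at 230, 176 and 170 CPM in hypoxia, above its 3 LPS libraries (log2 fold change -0.91, SE 0.18, edgeR adjusted p = 0.00048). Other calls included Rpl4, Rpl32, Rplp0, Rps3, Rps15, Rps15a and Rps19, at -0.42 to -1.11, all without overlap.

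Both counts depended on the first hypoxia library, without which 9 members were called against TNF and 7 against LPS. Over all tested genes lower calls fell too without it, from 2324 to 2004 for TNF and from 1798 to 1481 for LPS. Of the members' calls, 8 against TNF and 5 against LPS held in every alternative run, among them Rps3, Rpl22 and Rpl32 in both comparisons. The median of all 44 members was -0.59 for TNF and -0.60 for LPS, against -0.01 and 0.01 over all tested genes. In each, 38 of 44 estimates lay below 0, against 50.4% of all tested genes for TNF and 48.9% for LPS. The 2 comparisons share the hypoxia libraries, so their likeness is no independent support.

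**Figure D4:**
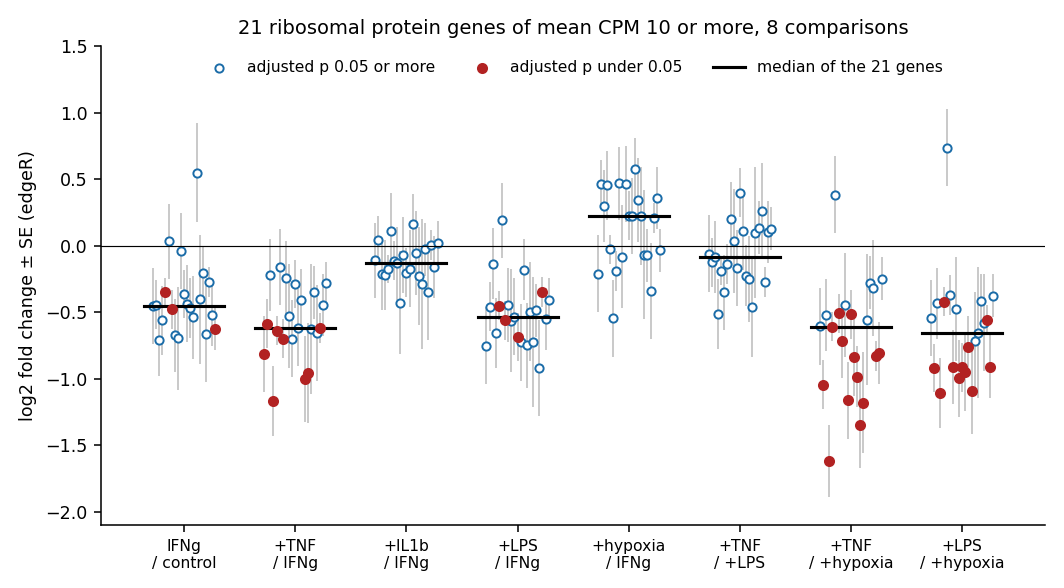
Log2 fold changes ± SE (y axis, edgeR) of the 21 members with a mean of 10 CPM or more in 8 comparisons (x axis). Red points passed an adjusted p of 0.05, open points did not, and the black line is the median of the 21. All red points lie below 0, and the IL1b, hypoxia and TNF against LPS comparisons have none.

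Over all 6 groups together 18 of 44 members differed by edgeR's joint test, against 60.2% of all tested genes. Of the 21 members of 10 CPM or more 17 differed, against 5593 of 7583 tested genes of that level. Of the 23 members under 10 CPM 1 differed. The 18 included Rps3, Rps9, Rps14, Rps15, Rps15a, Rps19, Rps24 and Rps26 of the small subunit and Rpl4, Rpl6, Rpl8, Rpl14, Rpl22, Rpl23, Rpl32 and Rplp0 of the large. Rpl6 (15.6 CPM ± 4.6 in control, 5.07 ± 1.76 with LPS, SD, n = 3) had the lowest level among them, at a mean of 9.17 CPM.

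The acidic stalk recruits the elongation factors to the large subunit, with Rplp0 as its base and Rplp1 and Rplp2 as its arms. Rplp0 was at 29.5, 34.5 and 45.0 CPM in control, 22.5, 25.5 and 20.4 with IFNg, 27.0, 9.99 and 20.6 with TNF, and 20.2, 19.0 and 10.9 with LPS. Its hypoxia libraries stood at 38.6, 30.3 and 25.6 CPM, above all LPS libraries and overlapping TNF. Rplp1 was at 70.7, 86.7 and 135 CPM in control and 62.3, 62.0 and 56.3 with IFNg, with no overlap but an adjusted p of 0.23 by edgeR. Rplp2 held 25 to 211 counts per library and did not pass in any comparison. Rpsa, which also serves as a laminin receptor, had at most 13 counts in a library and Rps6 at most 35, so neither gave a usable comparison.

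Ribosomal protein genes with a tissue-restricted or stress-linked copy were looked at separately, since such copies can replace the common form in some ribosomes. Rpl7l1, a relative of Rpl7 that acts in ribosome assembly, was at 10.4 to 18.5 CPM in control and 14.4 to 16.2 with IFNg. It lay at 7.72 to 13.5 CPM with hypoxia, below all 3 IFNg and all 3 LPS libraries, without passing the test (hypoxia against IFNg -0.55, SE 0.29, edgeR adjusted p = 0.18). With LPS against hypoxia, where 6 members had estimates above 0, it had the highest, at 0.74 (SE 0.29, edgeR adjusted p = 0.054), and it passed with library or RPKM totals and without the second LPS or second hypoxia library. Rpl7 itself stood at 1.4 to 6.5 CPM.

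Rps27l, a p53 target that differs from Rps27 by a few residues, was at 1.49 to 6.73 CPM and was called in no comparison, while Rps27 had 3 counts in all libraries together. With TNF 4 of 18 p53 targets rose and 5 fell, against 22.1% of all tested genes higher and 22.6% lower. Those that rose included Mdm2, the p53 ligase that free ribosomal proteins are known to bind, at 125 ± 3.6 CPM with IFNg and 1142 ± 19 with TNF (log2 fold change 3.19, SE 0.12, edgeR adjusted p = 1.3e-17). Rpl3l, the form of heart and skeletal muscle, had 61 counts in 7 of 18 libraries and at most 12 in 1, and its parent Rpl3 stood at 0.507 CPM ± 0.385 (SD, n = 3) with TNF to 2.07 ± 0.485 in control. Rpl10l and Rpl39l are mainly known from testis: Rpl10l had 0 counts with 12.4% of its windows repeated, and Rpl39l had 64 counts in 7 libraries, 30 of them in the third TNF library. Rpl22l1 had 10 counts against 17012 for Rpl22 over the 18 libraries, with 81.9 and 30.8% of windows repeated.

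Of 5 ribosomal proteins outside the symbol rule, Rack1 was well counted. Rack1, a scaffold protein on the head of the small subunit, was at 1305, 1400 and 1662 CPM in control and 1058, 1112 and 1101 with IFNg (log2 fold change -0.42, SE 0.14, edgeR adjusted p = 0.027). With TNF it was at 683, 516 and 660 CPM (log2 fold change -0.82, SE 0.14, edgeR adjusted p = 2.1e-05), and with LPS at 766, 761 and 508 (-0.68, SE 0.14, adjusted p = 0.00052). The groups did not overlap in any of these 3 comparisons. IL1b and hypoxia libraries lay at 918 to 1061 and 937 to 1130 CPM, overlapping IFNg, with log2 fold changes of -0.13 and -0.05 (SE 0.14 for both). Fau stood at up to 1.63 CPM, Rpl36al at up to 1.59, and Rps27rt at 0 counts.

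Genes that make or use ribosomes were taken from lists beside the members. The mitochondrial ribosome, built from other genes, 52 of 78 of them with no repeated window, had 20 of 76 proteins called lower and 4 higher with TNF (median -0.35), and 16 lower and 0 higher with hypoxia (median -0.38). The lower calls are 26.3% of the list with TNF, against 22.6% of all tested genes, and 21.1% with hypoxia, against 11.8%. Mrps15 fell from 55.4 ± 3.2 to 23.3 ± 5.4 CPM with TNF (log2 fold change -1.25, SE 0.18, edgeR adjusted p = 1.5e-06). With LPS the same list had 0 lower and 1 higher, Mrpl39, and a median of -0.02. With IFNg against control 5 rose and 1 fell, 6.58% and 1.32% against 13.5% and 10% of all tested genes, the latter Mrps6 (23.3 ± 5.0 to 3.50 ± 0.64 CPM, log2 fold change -2.74, SE 0.50, edgeR adjusted p = 0.00011).

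Ribosome biogenesis factors process ribosomal RNA and assemble the subunits. With IFNg 12 of 75 rose, 16% against 13.5% of all tested genes, and 0 fell, against 10%. Among those that rose was Sdad1 (15.9 ± 5.4 to 63.0 ± 2.9 CPM, log2 fold change 1.98, SE 0.18, edgeR adjusted p = 1.1e-09). With TNF 35 fell and 3 rose (median -0.47), and with hypoxia 33 fell and 2 rose (median -0.55). These lower calls are 46.7% and 44% of the list, against 22.6% and 11.8% of all tested genes. Dkc1, the pseudouridine synthase of ribosomal RNA, was at 15.4 ± 3.5 CPM with IFNg, 2.34 ± 1.28 with TNF and 3.97 ± 1.17 with hypoxia, and both changes were called. With LPS 4 fell and 4 rose (median -0.03), 5.33% each against 10.1% and 10.2%. Beside these, the members' medians were -0.45 with IFNg, -0.62 with TNF, 0.22 with hypoxia and -0.54 with LPS, opposite in sign to the biogenesis factors for IFNg (0.19) and hypoxia. Under RPKM or library totals the members' hypoxia median was near 0, while the median of all tested genes moved to -0.26 and -0.22. The difference between the lists was not tested.

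Other mRNAs known to carry a TOP tract, elongation and initiation factors among them, had more lower than higher calls with IFNg, TNF and LPS. Some of these genes are also in the list of translation factors, and Npm1 is also in that of biogenesis factors. Of 14 TOP mRNAs tested, 2 fell with IFNg (Eif4b and Eef2, the translocation factor, 2683 ± 178 to 2082 ± 116 CPM). With TNF 6 fell and with LPS 6, and none fell with hypoxia. With TNF, LPS and hypoxia 1 gene each rose, 7.14% against 22.1%, 10.2% and 13.5% of all tested genes. The summed level of the 15 listed genes measured was 8594 to 9093 CPM in control and 6894 to 7585 with IFNg. This sum was 10071 to 11974 CPM with TNF, 8626 to 8962 with LPS and 8796 to 9638 with hypoxia, above all IFNg libraries. With TNF and LPS the sum did not follow most of the genes, since 11 and 12 of the 14 had estimates below 0. With hypoxia 3 did. The lower calls are 14.3%, 42.9% and 42.9% of this short list with IFNg, TNF and LPS, against 10%, 22.6% and 10.1% of all tested genes. Their medians were -0.25, -0.39, -0.43 and 0.12 in that order. Of 47 translation factors 11 rose and 14 fell with TNF (23.4% and 29.8%, against 22.1% and 22.6% of all tested genes), and 8 rose and 10 fell with LPS (17% and 21.3%, against 10.2% and 10.1%). Among regulators of ribosome production 9 of 34 rose and 8 fell with TNF, 26.5% and 23.5%, close to the 22.1% and 22.6% of all tested genes. Those that rose included Mxd1, a MYC antagonist (10.4 ± 1.1 to 143 ± 32 CPM, log2 fold change 3.78, SE 0.23, edgeR adjusted p = 1.8e-13). With hypoxia 7 rose and 3 fell, 20.6% and 8.82% against 13.5% and 11.8% of all tested genes. Those that rose included Eif4ebp1, the repressor of cap-dependent translation through which mTORC1 acts (8.75 ± 2.33 to 35.5 ± 3.6 CPM, log2 fold change 2.01, SE 0.23, edgeR adjusted p = 2.3e-07). RNA polymerase I genes had 1 of 19 higher and 5 lower with TNF, 5.26% and 26.3% against 22.1% and 22.6% of all tested genes.

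**Figure D5:**
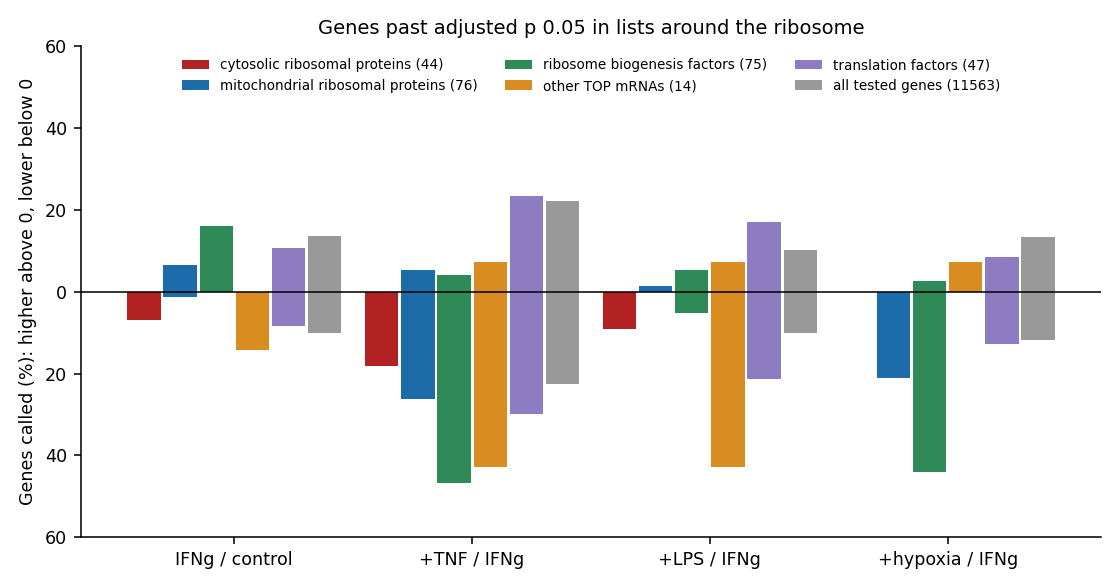
Share of genes called (y axis, percent of each list, higher above 0 and lower below 0) in 4 comparisons (x axis) for the members, 4 related lists and all tested genes. IL1b against IFNg is left out, as 0.303% of all genes were called there. Biogenesis factors and mitochondrial ribosomal proteins have lower calls with TNF and hypoxia, and the members have none with hypoxia.

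Start sites of 8 members called in at least 1 comparison were searched for a run of pyrimidines, the letters of which a TOP tract is made, and 4 of the 8 held one. Below are 30 bases, 15 on each side of the RefSeq start nearest to the GENCODE start (GRCm38.p6), with the longest run of C and T that begins with C and holds at least 5 more of these letters in capitals. They are Rps9 (chr7:3704026-3704055, plus strand), Rps15a (chr7:118116133-118116162, minus strand), Rpl4 (chr9:64173372-64173401, plus strand), Rpl14 (chr9:120571502-120571531, plus strand) and, without such a run, Rps3 (chr7:99483695-99483724, minus strand), Rps19 (chr7:24884577-24884606, plus strand), Rpl22 (chr4:152325711-152325740, plus strand) and Rplp0 (chr5:115559452-115559481, plus strand).
Rps9: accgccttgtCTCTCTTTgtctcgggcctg
Rps15a: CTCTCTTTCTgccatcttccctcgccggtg
Rpl4: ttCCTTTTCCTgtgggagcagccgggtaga
Rpl14: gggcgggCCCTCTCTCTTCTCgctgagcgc
Rps3: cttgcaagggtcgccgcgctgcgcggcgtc
Rps19: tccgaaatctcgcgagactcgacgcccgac
Rpl22: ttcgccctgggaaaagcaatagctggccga
Rplp0: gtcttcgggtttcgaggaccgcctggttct
The capitalized runs of Rps9 and Rpl14 span the RefSeq start, while those of Rps15a and Rpl4 end before it. Rps15a also holds a shorter run of this kind, left in lower case, that begins at the RefSeq start. For these 8 genes the RefSeq start lay 0 to 221 bases from the GENCODE start, and a run in the window is therefore not shown to be the tract at the mRNA's first base.
RefSeq starts were found for 63 of 83 members, and 52.4% of these windows held such a run, against 22.3% of 27025 genes with an entry and 29.0% of 69 mitochondrial ribosomal protein genes. Over the 300 bases from 250 before to 50 after the start, CCGGAAG, the core bound by GABP and other ETS factors, was in 39.7% of member promoters on either strand, against 9.16% of all and 34.8% of mitochondrial ribosomal protein promoters. The E-box CACGTG bound by MYC was in 7.94% of member and 7.19% of all promoters. AAGATGGC, a YY1-type motif, was in 7.94% of member, 2.85% of all and 17.4% of mitochondrial ribosomal protein promoters. These are letters in a window.

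Libraries of 1 group differed more in these genes than in others. Over the 21 members of 10 CPM or more, the median SD of log2 CPM between libraries of a group, pooled over the 6 groups, was 0.38, against 0.22 over all tested genes of that level. The third LPS library was lowest of its group in 17 of 21 members and highest in 4, Rpl4, Rpl7l1 and Rpl23 among them. The second TNF library was lowest in 13 and highest in 3, Rpl4 and Rpl23 among them. The median deviation of the 21 members from the mean of the other libraries of the group was -0.59 (log2) in the third LPS and -0.39 in the second TNF library, and 0.34 in the third control library. For 391 other genes of deposited length under 500 bases it lay at -0.05, -0.06 and -0.03 in these 3 libraries. Among the small subunit genes Rps9, Rps24 and Rps26 were highest together in the second control, IFNg and hypoxia libraries and in the third library of both TNF and IL1b. Rps26 stood there at 318, 226, 149, 141 and 135 CPM, against 64.4 to 183 CPM in the other libraries of those groups. This trio was picked after its values were seen, and what sets these libraries apart was not tested.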

How the data were processed

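RNA was measured in 18 libraries of 50-base single-end reads (TruSeq Stranded mRNA from 100 ng total RNA, Illumina NovaSeq), per the labels' protocols. The authors aligned reads with GSNAP to mm10, per the submitters' processing notes, and deposited whole-number counts and RPKM per gene for 22598 genes. The counter, its annotation and its use of strand are not stated there, and 86.7% of deposited widths are multiples of 3, as coding lengths would be. Groups came from the sample titles. The members and gene lists were chosen with earlier results of these data known. Counts as deposited were tested with edgeR 4.0.16 in R 4.3.3 (TMM, filterByExpr, quasi-likelihood fit of all 18 libraries, Benjamini-Hochberg over 11563 genes), and SE is the log2 fold change over the root of F. The deposited RPKM values served only for library totals, of which 51.68 to 56.45% were counted in genes. The fit was also run on simulated counts with far fewer changed genes than here, and no statement rests on that run. Genes named were up to 10 called members per comparison with groups apart, by size of change, the 5 highest and lowest by level per kilobase, paralogs, the stalk genes, Rpsa and Rps6, the 10 members with the widest range of group means, and up to 4 called genes per list; others were chosen after their values were seen, and some genes under this rule are not reported here. Library totals of 12270565 to 20952799 give the floor of 3 counts, and TMM factors were 0.805 to 1.19. Alternatives were DESeq2 1.42.0, other scalings, no filter, 2-group fits, a replicate block and leaving out each library. Numbers were not taken as pairs, since not every same-numbered pair correlated over 0.1 (7 of 8 pairs numbered 1 did, and 1 of 16 numbered 2 or 3). For IFNg against control same-numbered pairs correlated at 0.078 to 0.125 and different-numbered pairs at -0.084 to -0.027. For TNF against LPS same-numbered pairs correlated at -0.080 to 0.283, and a different-numbered pair reached 0.25.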

Additional observations from a re-analysis of the deposited data

How the results depend on the processing

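No called value reversed its direction. The members' median for hypoxia against IFNg, 0.22, changed sign with RPKM totals, which moved the median of all tested genes to -0.26. Among values for single members under an alternative, 3177 kept their direction and side of the threshold, 89 newly passed it and 67 no longer did. Lower calls with IFNg against control (3) became 11 with RPKM totals, 7 with library totals, 5 with DESeq2 and 10 when only these groups were fitted. Those with TNF against IFNg (8) became 17 with RPKM totals and 17 with library totals. Those with LPS against IFNg (4) became 9, 7 and, with only these groups, 8. For TNF against LPS (0) they became 4 with RPKM totals and 3 with library totals, and for hypoxia against IFNg (0) 2 with RPKM totals. Higher calls (0) became 1 without the filter on low counts with TNF against IFNg, 1 without the filter, 1 with DESeq2 and 5 with only these groups for hypoxia against IFNg, and 1 with RPKM totals and 1 with library totals for LPS against hypoxia. Over all tested genes lower calls rose too with RPKM and library totals, in that order. They went from 1161 to 1796 and 1791 for IFNg against control, and from 2614 to 3985 and 4134 for TNF against IFNg. For LPS against IFNg they went from 1164 to 1441 and 1474, and for TNF against LPS from 1407 to 2621 and 2812. For hypoxia against IFNg they went from 1362 to 2564 and 2376.

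The median log2 fold change became -0.60 with RPKM totals for IFNg against control, -0.94 with RPKM and -0.96 with library totals for TNF against IFNg, and -0.021 with RPKM and 0.011 with library totals for hypoxia against IFNg. In the same order the median of all tested genes became -0.17, -0.37, -0.40, -0.26 and -0.22. The log2 ratio of summed shares for IFNg against control, -0.56, was -0.64 without the 5 members with the most counts. The cause of these shifts was not tested.

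Leaving out each library gave 1 to 4 lower calls with IFNg against control, 4 to 9 with TNF against IFNg, 1 to 6 with LPS against IFNg, 0 to 2 for TNF against LPS, 9 to 14 for TNF against hypoxia and 7 to 11 for LPS against hypoxia. Higher calls were 0 to 1 for hypoxia against IFNg (1 without the third IFNg library), for TNF against LPS and for LPS against hypoxia. The joint test called 15 to 19.

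The labels do not say what the replicate numbers mark (correlations of -0.08 to 0.28, over 0.1 in 7 of 8 pairs numbered 1 and 1 of 16 others). With them as a replicate block, lower calls were 3, 7 and 4 for IFNg, TNF and LPS, 14 and 12 for TNF and LPS against hypoxia, and 18 by the joint test. Low counts left 39 of 83 members untested.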
